A study of Homo sapiens with 8 samples.

Results

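The 41 genes described here encode the enzymes of glycolysis and the classic targets of the hypoxia response. They comprised 17 glycolytic enzymes, 6 transporters and regulators of glycolysis, 16 other hypoxia-inducible genes and the 2 alpha subunits of hypoxia-inducible factor (HIF). Members were taken by gene name from a list drawn up with earlier results of these data known, and all 41 were found among the 48162 genes listed for each library. Of these, 40 reached a mean of 1 FPKM (fragments per kilobase of gene length, with each library scaled to its depth) over the libraries and entered the tests, and CA9 did not. The filter was on the mean over all libraries, and EPAS1, LOX and CA12 reached it through KYSE450, with low values in KYSE70.

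KYSE70 and KYSE450 are human cell lines derived from esophageal squamous cell carcinoma, and the long noncoding RNA NMR was raised or lowered in both. The study had 4 groups, each with 1 library from KYSE70 and 1 from KYSE450: a plasmid control, overexpression of NMR, a lentiviral control and knockdown of NMR. For overexpression, pcDNA3.1 plasmid was transfected with a lipid reagent, and for knockdown the cells were infected with lentivirus made in HEK 293T cells, a human embryonic kidney line; the labels do not say what the controls received. All cells were kept in serum medium at 5% CO2 and were at passages 5 to 10 by their labels; no label gives an oxygen level or a low-oxygen treatment. Each group therefore had 2 libraries, from different lines, and no group had a second culture of the same line, and a p-value here reflects only how far these 8 libraries scatter, which may in part be technical. Delivery by plasmid or by lentivirus is called the arm below, and the labels give no culture, extraction or sequencing date, so the delivery method cannot be told apart from any other handling that differed between the arms. No listed gene carried the name NMR, so neither manipulation was checked on its target.

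Glycolysis splits glucose to pyruvate, and lactate dehydrogenase turns pyruvate into lactate. When oxygen falls, the prolyl hydroxylases that mark HIF alpha subunits for destruction slow down, HIF accumulates and binds a short core motif in its target genes, and the cell shifts from mitochondrial respiration towards glycolysis. Squamous carcinoma cells often run high glycolysis with oxygen present, so glycolytic enzymes and other HIF targets need not move together. HIF alpha subunits are regulated mainly as proteins, which RNA levels do not show.

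The libraries held 26401805 to 37937856 recovered reads, and 1 read in a gene of 1 kb was worth 0.0264 to 0.0379 FPKM. All 10 squamous epithelium markers reached 1 FPKM in at least 1 library, with sums of 12400 to 26100 FPKM in the plasmid libraries and 7770 to 13600 FPKM in the lentiviral ones. The sums were mostly KRT5 and KRT6A, and the lines did not share every marker. KRT17 was at 0.341 to 0.873 FPKM in KYSE70 (190 to 264 in KYSE450), and ITGB4 at 0.331 to 1.58 FPKM in KYSE450 (117 to 145 in KYSE70). Of other cell types, 3 of 7 fibroblast markers, 0 of 6 leukocyte markers and 1 of 4 endothelial markers reached 1 FPKM anywhere, with sums of 27.1 to 52.3, 0.198 to 1.39 and 0.749 to 4.31 FPKM. The fibroblast sum was mostly COL1A1, at 20.6 to 37.0 FPKM, and COL3A1 was at 21.9 FPKM in the KYSE70 knockdown library against 3.80 FPKM in its control. The KYSE70 knockdown library stood apart, with 8.63% of its FPKM sum from mitochondrial genes against 3.84% to 5.75% in the other 7. Its change against its control ran with gene GC content across 13914 genes (Spearman's rho -0.483, genes not being independent), against 0.042 for the KYSE450 knockdown pair. In bulk RNA, a change in the number of cells of a kind and a change in RNA per cell cannot be told apart.

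The upstream bases of the genes were searched for letters that HIF can read. The core motif searched was ACGTG on both strands, so CACGT on the gene's strand also counts; where the letters CACGTG occur, both strands match at the same place. The RefSeq promoter table (GRCh38.p14) matched 37 of the 41 members by gene identifier, or failing that by symbol or synonym. In the 250 bases upstream of the start sites, 22 of the 37 genes (59.5%) held the motif, against 21.7% of all 27305 genes in the table. Counted by window, as members had more windows per gene, 27 of 67 member windows (40.3%) and 18.5% of all 35116 windows held it. Not matched were SLC16A1, VEGFA, NDRG1 and BNIP3L. The lines below give 8 members with higher RNA in the lentiviral arm, then CA9, and then 3 members that did not pass that test, 5′ to 3′ on the gene's strand with 1 match in capitals; further matches in the lines of PDK1, PGK1 and LDHA, and the first base where the letters are CACGTG, are in lower case.
PDK1: ctgctgcccgccacgtccctCACGTacc
ALDOC: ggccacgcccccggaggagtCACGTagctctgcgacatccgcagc
ENO2: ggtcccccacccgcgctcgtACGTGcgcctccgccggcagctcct
PGK1: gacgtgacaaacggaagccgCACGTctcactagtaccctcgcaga
BNIP3: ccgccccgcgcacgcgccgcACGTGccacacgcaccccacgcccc
ANGPTL4: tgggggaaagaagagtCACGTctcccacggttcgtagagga
ERO1L: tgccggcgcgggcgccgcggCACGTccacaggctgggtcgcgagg
P4HA1: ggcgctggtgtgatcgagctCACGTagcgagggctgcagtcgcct
CA9: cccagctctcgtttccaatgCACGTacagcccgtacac
EGLN1: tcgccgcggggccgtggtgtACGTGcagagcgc
GAPDH: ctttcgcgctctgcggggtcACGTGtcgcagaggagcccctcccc
LDHA: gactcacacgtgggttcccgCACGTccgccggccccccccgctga

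These stretches lie at chr2:172556062-172556089 (PDK1, plus strand), chr17:28576899-28576943 (ALDOC, minus), chr12:6914442-6914486 (ENO2, plus), chrX:78104045-78104089 (PGK1, plus) and chr10:131982032-131982076 (BNIP3, minus). The others lie at chr19:8363905-8363945 (ANGPTL4, plus), chr14:52695648-52695692 (ERO1L, minus), chr10:73096928-73096972 (P4HA1, minus), chr9:35673890-35673927 (CA9, plus), chr1:231422288-231422320 (EGLN1, minus), chr12:6535164-6535208 (GAPDH, plus) and chr11:18394470-18394514 (LDHA, plus). Among matched and tested members, 8 of the 12 that were higher in the lentiviral arm held the motif and 13 of the other 24 did. The broader pair ACGTG or GCGTG was found in 62.7% of member windows and 43.2% of all windows. GCGTG on its own was in 35.8% of member windows and 32.2% of all windows. The promoter table was not limited to genes expressed in these lines, whereas all members but CA9 reached a mean of 1 FPKM. The shares are therefore not matched for expression or base content, and their difference was not tested. A match is a run of letters and not a measured binding site, and binding was not measured here.

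Levels per gene length differed widely between the members. ENO1, the main enolase, had the highest mean over the 8 libraries, followed by GAPDH, LDHB, PKM, LDHA and ALDOA, each with a mean of 1100 FPKM or more. ENO1 averaged 2479 FPKM, GAPDH 1864 FPKM and LDHB 1842 FPKM, and GAPDH and LDHB overlapped across libraries. The order differed by line: LDHB, at 2363 FPKM, was above ENO1, at 2293 FPKM, in KYSE450, and PKM ranked 2 in KYSE70 but 5 in KYSE450. Summed, the 17 glycolytic enzymes made up 1.55% to 2.07% of a library's FPKM. The 16 other hypoxia-inducible genes together made up 0.0398% to 0.157%. Their lowest was CA9, the cell-surface carbonic anhydrase often used as a hypoxia marker. CA9 had 0 reads in the 4 plasmid libraries and the KYSE70 lentiviral control, where the floor of 3 reads allows up to 0.216 to 0.257 FPKM per library. It had 1 read in the KYSE70 knockdown library, 9 reads (0.538 FPKM, exact Poisson 95% interval 0.246 to 1.02) in the KYSE450 lentiviral control and 16 reads (1.24 FPKM, interval 0.71 to 2.02) in the KYSE450 knockdown library. CA9 reads were thus above the floor only in the lentiviral KYSE450 libraries. Intervals and floors cover counting error only, because no molecular identifiers separate molecules from their PCR copies.

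Many hypoxia-inducible genes were higher in the lentiviral libraries than in the plasmid libraries of the same line. Fitted over both lines on the log2(FPKM + 1) scale, 15 of 40 members were higher in the 4 lentiviral libraries than in the 4 plasmid libraries at an adjusted p under 0.05, and 0 were lower. Over all 14311 genes tested, 14.4% were called in either direction, 10.0% higher and 4.35% lower. By role, 9 of 15 other hypoxia-inducible genes, 4 of 17 glycolytic enzymes, 1 of 6 transporters and regulators and HIF1A were higher. The median difference was 0.90 for the other hypoxia-inducible genes, all 15 of them above 0, and 0.25 for the glycolytic enzymes, against 0.07 for all genes. Within each line 14 of the 15 were above 0, against 61.7% of all genes in KYSE70 and 51.3% in KYSE450. CA12, 1 of the 15, averaged 0.792 FPKM in the plasmid libraries and 1.26 FPKM in the lentiviral ones. It thus reached the filter only through the lentiviral libraries, and its sign is not independent of the filter. The fitted difference understates the change of genes at low FPKM, because 1 is added before the log. Each arm held control and treated libraries in equal number, but the treated ones were overexpression in the plasmid arm and knockdown in the lentiviral arm. In this fit the intended NMR level of the treated libraries therefore cannot be told apart from the arm, and the controls alone are given below. The fit had 5 residual degrees of freedom.

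Among the other hypoxia-inducible genes, NDRG1, a stress-responsive gene widely used as a hypoxia marker, had the largest fitted difference. In KYSE70 it was at 70.1 FPKM in the plasmid control, 93.0 with overexpression, 196 in the lentiviral control and 462 with knockdown. In KYSE450 it was at 12.6, 25.6, 103 and 195 FPKM in the same order. Both lentiviral libraries exceeded both plasmid libraries within each line, and the fitted difference was 2.40 (SE 0.36, adjusted p = 0.00802). VEGFA encodes the vascular endothelial growth factor that HIF induces to draw in blood vessels. Its levels, again in the order plasmid control, overexpression, lentiviral control and knockdown, were 57.2, 58.0, 150 and 136 FPKM in KYSE70 and 22.2, 32.0, 166 and 63.7 FPKM in KYSE450. The KYSE450 lentiviral control was the highest of the 8, the arms did not overlap within either line, and the difference was 1.60 (SE 0.28, adjusted p = 0.0112).

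BNIP3 and BNIP3L encode related mitochondrial receptors that direct mitochondria to autophagy. BNIP3 ran at 22.9, 21.7, 56.4 and 47.5 FPKM in KYSE70 and at 19.9, 16.1, 60.9 and 53.3 FPKM in KYSE450, in the order used above. All 4 lentiviral libraries lay above all 4 plasmid libraries, whatever the line, and the difference was 1.40 (SE 0.14, adjusted p = 0.00185). BNIP3L ran at 28.3, 29.2, 86.9 and 112 FPKM in KYSE70 and at 43.8, 44.7, 73.2 and 62.9 FPKM in KYSE450. Its arms also did not overlap, with a difference of 1.17 (SE 0.22, adjusted p = 0.0139). EGLN3, an oxygen-sensing prolyl hydroxylase that is itself a HIF target, ran at 17.2, 16.6, 24.3 and 48.1 FPKM in KYSE70 and at 5.24, 3.13, 46.7 and 31.7 FPKM in KYSE450. The lentiviral libraries were higher in both lines, by 2.14 times in KYSE70 and 9.36 times in KYSE450 on the mean FPKM, and the fitted difference was 1.97 (SE 0.40, adjusted p = 0.0174). EGLN1, the main hydroxylase of HIF alpha, showed a smaller difference of 0.26 that did not pass the test (adjusted p = 0.175).

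The other members of this class that passed were ANGPTL4, a secreted lipase inhibitor, P4HA1, a collagen prolyl hydroxylase subunit, ERO1L, an oxidase of the endoplasmic reticulum, and KDM3A, a histone demethylase. ANGPTL4 was at 0.834 to 1.22 FPKM in the plasmid libraries and 2.01 to 8.41 FPKM in the lentiviral ones, with no overlap between the arms (difference 1.24, SE 0.33, adjusted p = 0.0378). P4HA1 differed by 0.97 (SE 0.20, adjusted p = 0.0184), ERO1L by 0.90 (SE 0.14, adjusted p = 0.0084) and KDM3A by 0.63 (SE 0.14, adjusted p = 0.0205). The 6 that did not pass were LOX, ANKRD37, P4HA2, ADM, CA12 and EGLN1, with differences of 0.26 to 0.70. Of the HIF alpha subunits, HIF1A ran at 96.5, 111, 133 and 180 FPKM in KYSE70 and at 65.6, 57.0, 132 and 99.8 FPKM in KYSE450. HIF1A was higher in the lentiviral arm within both lines by 0.74 (SE 0.15, adjusted p = 0.017), while EPAS1, which encodes HIF-2 alpha, differed by 0.02 (adjusted p = 0.966). That value averages 0.39 in KYSE70, where the arms overlapped, and -0.36 in KYSE450, where the lentiviral libraries were lower without overlap.

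**Figure D1:**
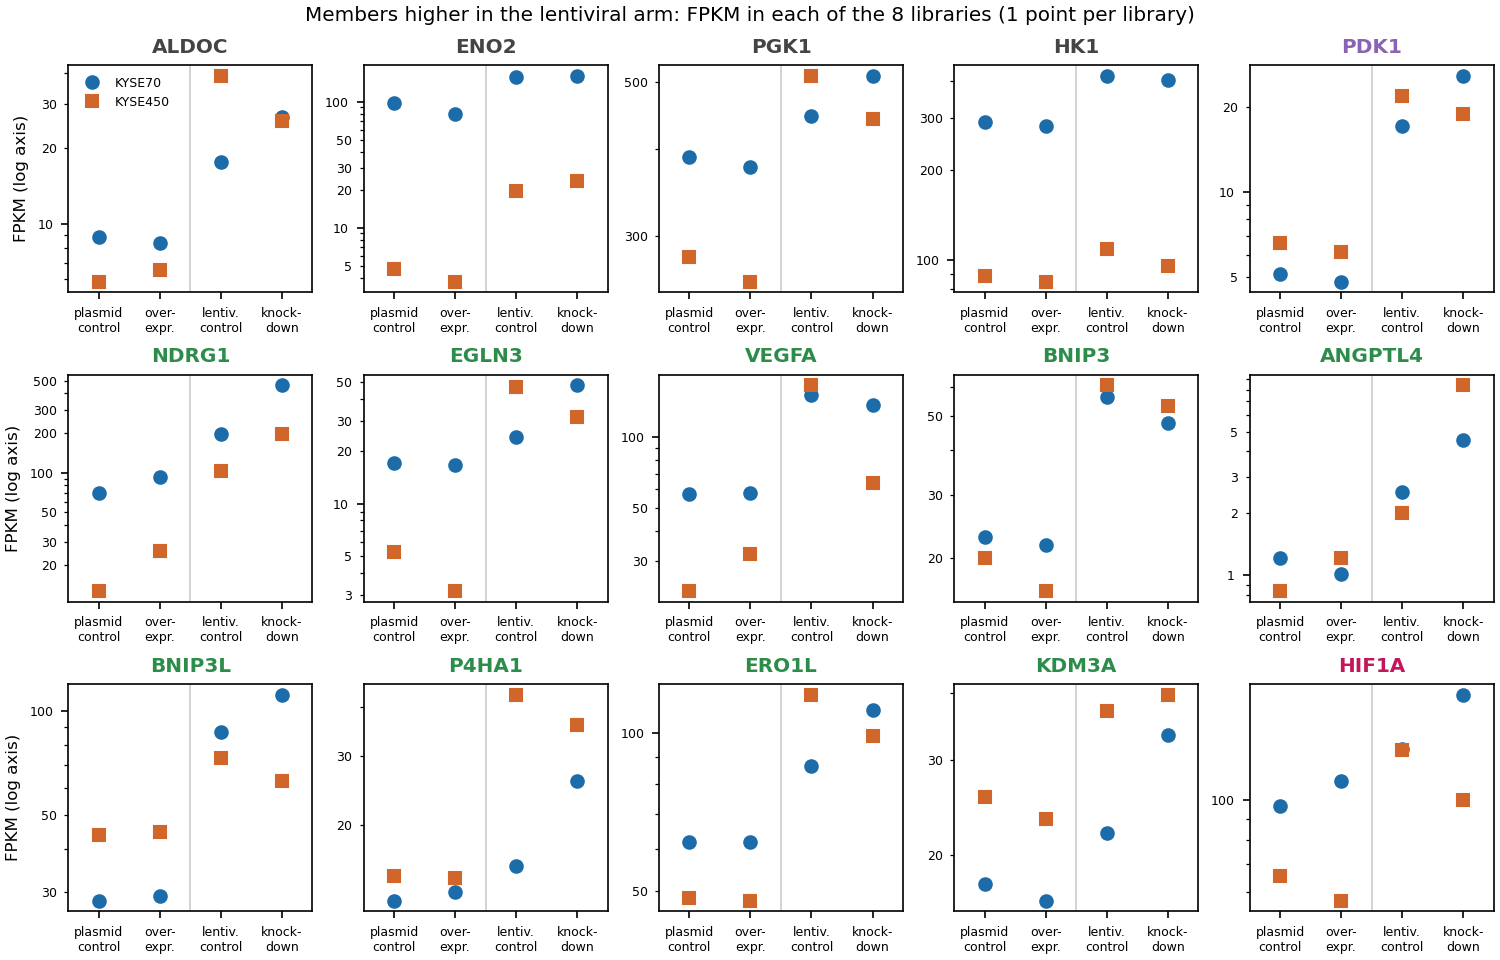
FPKM (log axis) of the 15 members with higher RNA in the lentiviral arm, 1 point per library, blue circles for KYSE70 and orange squares for KYSE450; the grey line separates plasmid from lentiviral libraries. BNIP3 sits at 16.1 to 22.9 in the plasmid libraries and at 47.5 to 60.9 in the lentiviral libraries; each panel has its own axis, and the members were selected for this difference.

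Among the transporters and regulators, PDK1 was the member that passed. PDK1 encodes a kinase that shuts off pyruvate dehydrogenase and so keeps pyruvate out of the mitochondria. It ran at 5.12, 4.81, 17.1 and 25.8 FPKM in KYSE70 and at 6.58, 6.12, 21.9 and 18.9 FPKM in KYSE450. All 4 lentiviral libraries were above all 4 plasmid libraries, and the difference of 1.71 (SE 0.16, adjusted p = 0.00148) had the smallest adjusted p of the 40 members. SLC16A1, a lactate carrier, differed by 0.41 and just missed (adjusted p = 0.0501). SLC2A1, the glucose transporter GLUT1, is a textbook HIF target, yet it had a difference below 0. SLC2A1 ran at 568, 670, 410 and 392 FPKM in KYSE70 and at 349, 429, 375 and 364 FPKM in KYSE450, so that the arms were apart in KYSE70 and overlapped in KYSE450 (difference -0.34, SE 0.15, adjusted p = 0.144). PFKFB4, PFKFB3 and SLC16A3 did not pass either, with differences of 0.49, -0.07 and 0.36.

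Of the glycolytic enzymes, the 4 that passed were ALDOC, ENO2, PGK1 and HK1. ALDOC and ENO2 encode the brain-type aldolase and enolase, which catalyse the same steps as the far more abundant ALDOA and ENO1. ALDOC ran at 8.86, 8.39, 17.6 and 26.8 FPKM in KYSE70 and at 5.87, 6.52, 39.0 and 25.7 FPKM in KYSE450, with all lentiviral libraries above all plasmid ones (difference 1.71, SE 0.23, adjusted p = 0.00617). ENO2 ran at 97.7, 79.5, 156 and 161 FPKM in KYSE70 and at 4.69, 3.71, 19.7 and 23.4 FPKM in KYSE450 (difference 1.48, SE 0.24, adjusted p = 0.00989), with no overlap of the arms within a line. PGK1, which makes the first ATP of glycolysis, differed by 0.57 (SE 0.14, adjusted p = 0.0297), and HK1, the housekeeping hexokinase, by 0.37 (SE 0.11, adjusted p = 0.0484); with each library rescaled by its median ratio neither passed. HK2, the inducible hexokinase, and PFKM, a phosphofructokinase subunit, missed the threshold (adjusted p = 0.0515 and 0.0545).

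Fitted over both lines, the abundant isozymes of the same steps had no such difference past the test. ALDOA differed by 0.02 between the arms and ENO1 by -0.19, neither past the test, against 1.71 for ALDOC and 1.48 for ENO2. The ALDOA value averages -0.42 in KYSE70 and 0.46 in KYSE450, and the ENO1 value -0.51 and 0.14. For both genes the lentiviral libraries were lower in KYSE70 and higher in KYSE450, without overlap in either line. ALDOA still supplied 95.8% to 99.5% of the ALDOA plus ALDOC level in every library, and ENO1 92.6% to 99.8% of the ENO1 plus ENO2 level. The other enzymes that did not pass ranged from -0.22 (PKM) to 1.12 (HK2). Many of these enzymes, GAPDH, PGK1, LDHA, ALDOA and ENO1 among them, have processed pseudogene copies, and the sources do not say how reads shared with such copies were counted.

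**Figure D2:**
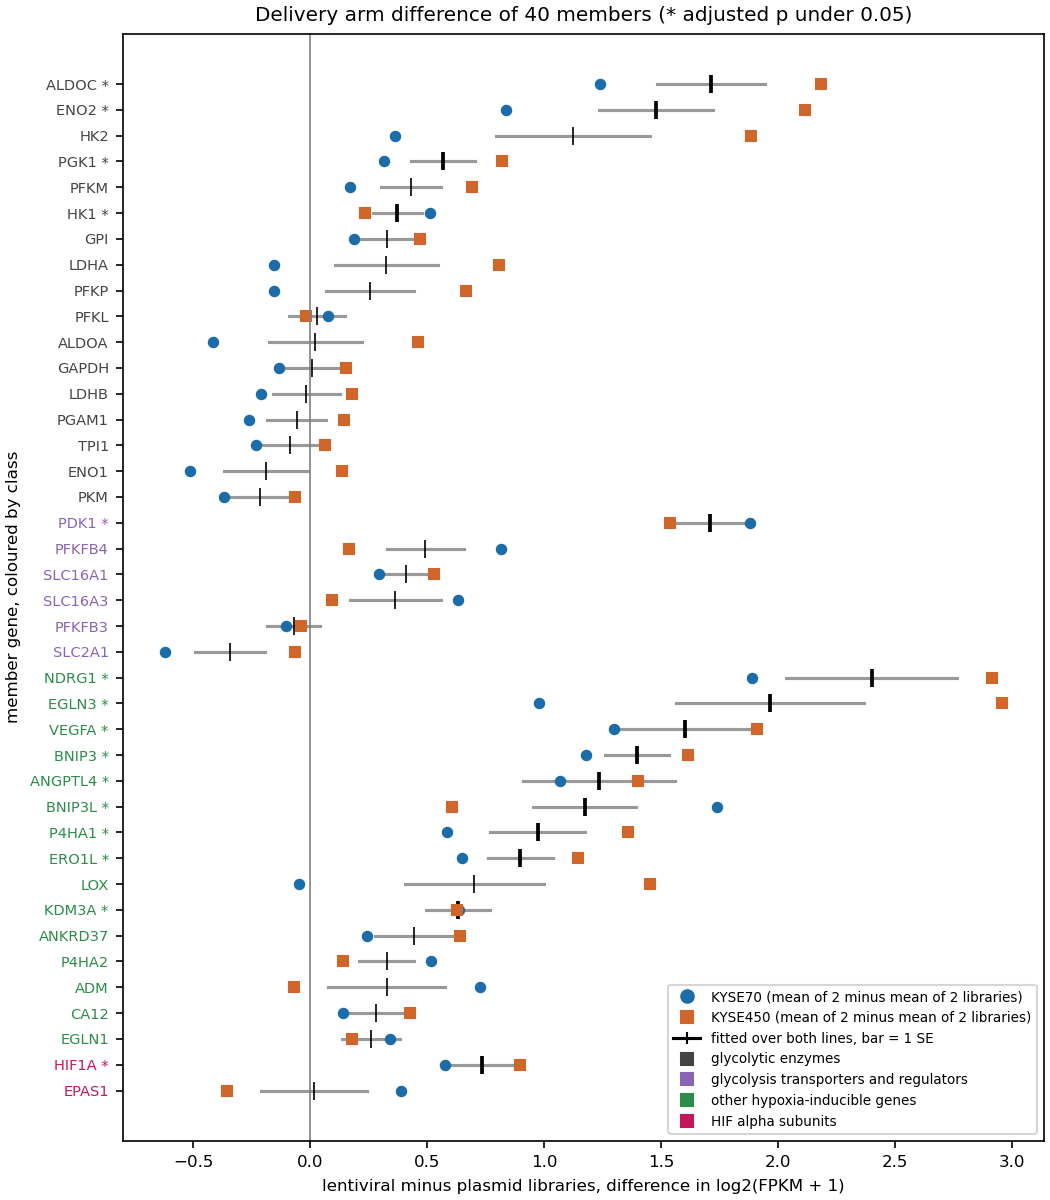
Lentiviral minus plasmid libraries for the 40 members tested, as a difference in log2(FPKM + 1): blue circles and orange squares are KYSE70 and KYSE450 (mean of 2 libraries minus mean of 2), ticks are the fit over both lines with a bar of 1 SE, and an asterisk marks an adjusted p under 0.05. All 15 other hypoxia-inducible genes (green) have a fit above 0, while the glycolytic enzymes (grey) range from -0.22 to 1.71. CA12 reached the filter only through the lentiviral libraries.

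Within each line, the glycolytic enzymes were ordered differently by arm. In KYSE450 the lentiviral libraries were above the plasmid libraries without overlap for 31 of 40 members (35.2% of all genes), among them 14 of 17 glycolytic enzymes. The 31 include CA12, which reached the filter only through the lentiviral libraries. In KYSE70 the lentiviral libraries were above without overlap for 24 of 40 members (42.7% of all genes), among them 6 of 17 glycolytic enzymes. There, 7 of the 17 were lower without overlap. Those 7 were ALDOA, TPI1, PGAM1, ENO1, PKM, LDHA and LDHB, and with SLC2A1 they made 8 of 40 members lower in KYSE70, against 21.5% of all genes. LDHA, which makes lactate, ran at 1096 and 813 FPKM in the KYSE450 plasmid libraries and 1862 and 1466 FPKM in the lentiviral ones, but at 1474 and 1477 FPKM against 1243 and 1408 FPKM in KYSE70. The class median of the glycolytic enzymes was 0.46 in KYSE450 and -0.14 in KYSE70, where the median over all genes was 0.01 and 0.13. For the other hypoxia-inducible genes it was 1.15 and 0.65. With the trend on GC content and length removed, the glycolytic medians were 0.49 in KYSE450 and -0.03 in KYSE70, and those of the other hypoxia-inducible genes 1.09 and 0.53.

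Taking both lines, 21 of 40 members were higher in the lentiviral arm without overlap (20% of all genes) and 0 of 40 were lower (10.6% of all genes). The 21 comprised 12 of 15 other hypoxia-inducible genes, 6 of 17 glycolytic enzymes, 2 of 6 transporters and regulators, and HIF1A. A direct test of the difference between the lines, the interaction of line and arm, called 4 of 40 members, against 6.88% of all genes. BNIP3L had the larger lentiviral difference in KYSE70 (KYSE70 minus KYSE450 1.14, SE 0.22, adjusted p = 0.027). EGLN3 (-1.98, SE 0.47, adjusted p = 0.046), LOX (-1.50, SE 0.31, adjusted p = 0.0313) and ENO2 (-1.28, SE 0.23, adjusted p = 0.0234) had the larger one in KYSE450. LOX, a collagen crosslinking enzyme, ran at 1.39, 2.56, 6.14 and 7.90 FPKM in KYSE450 and at 0.148 to 0.333 FPKM in all KYSE70 libraries. LOX passed the filter only through KYSE450, so its call here is not independent of the filter. The interaction of LDHA (-0.96, adjusted p = 0.0862), ALDOA (-0.88, adjusted p = 0.0807) and HK2 (-1.52, adjusted p = 0.0707) did not pass. These 4 calls rested on every library of the plasmid arm and on the lentiviral KYSE450 libraries: without either plasmid control, either overexpression library or either KYSE450 lentiviral library 0 members and 0.252% to 3.63% of all genes passed. Without the KYSE70 lentiviral control 13 of 40 members and 36.6% of all genes passed, and without the KYSE70 knockdown library 11 members and 14.4% of all genes did.

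The controls alone gave differences of like size, and these libraries are part of the arm comparison. Lentiviral control minus plasmid control had a median of 0.73 for the other hypoxia-inducible genes and 0.26 for the glycolytic enzymes, with 0.07 for all genes. In this fit limma called 0 of 40 members (0.00% of all genes), with 12 members and 2078 genes at an unadjusted p under 0.05, and voom on recovered reads also called 0. BNIP3 (1.41, SE 0.20, adjusted p = 0.0964), PDK1 (1.58, SE 0.25, adjusted p = 0.107), NDRG1 (2.21, SE 0.34, adjusted p = 0.107) and VEGFA (2.11, SE 0.33, adjusted p = 0.107) came nearest. With the 4 control libraries fitted alone, which leaves 1 residual degree of freedom, these 4 members passed, among 73 genes in all (0.51%). The arm difference did not need the KYSE70 knockdown library with the high mitochondrial share: without it 15 members were called, 14 of them the same, with 17.5% of all genes. It moved most with the KYSE450 plasmid control, without which 8 members, all among the 15, and 3.38% of all genes were called. Without the term for the cell line, 2 members passed (BNIP3 and PDK1) with 0.07% of all genes.

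Further genes of the pathway were counted from lists. Over all genes tested, 10.0% were higher in the lentiviral arm and 4.35% lower, 14.4% in either direction. Lists of 10 to 12 genes are too short for their counts to be set apart from these shares. Of 20 further HIF targets tested, 10 were higher in the lentiviral arm and 0 lower, with MXI1, a MYC antagonist, at 1.76 (SE 0.19, adjusted p = 0.00276) and FAM162A, a mitochondrial protein, at 0.83 (SE 0.11, adjusted p = 0.00622). Of 11 genes of pyruvate entry and lactate transport, 3 were higher and 0 lower, with PDP1 at the smallest p of the 3 (1.15, SE 0.11, adjusted p = 0.00185), the phosphatase that reactivates pyruvate dehydrogenase and so works against PDK1. Of 12 genes of the HIF machinery, 1 was higher and 2 lower. These 3 were chosen for naming after their values were seen: VHL, the HIF ubiquitin ligase subunit, was higher by 0.66 (SE 0.14, adjusted p = 0.0212). The coactivators CREBBP and EP300 were lower, at -0.81 (adjusted p = 0.0075) and -0.50 (adjusted p = 0.026). Of the 10 squamous markers, 1 was higher in the lentiviral arm (TP63, 0.87, adjusted p = 0.0256), 1 lower (KRT5, -1.15, adjusted p = 0.0237) and 8 were not called. They too were named after their values were seen, and their part in the result was not tested.

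The lines themselves differed in the levels of isozymes of the same glycolytic step. Between 4 KYSE70 and 4 KYSE450 libraries 16 of 40 members were called, 7 higher and 9 lower in KYSE70, while 50.3% of all genes were called, 24.7% higher and 25.6% lower. The members' share was thus below the background, and the spread within a line here includes both arms. Without overlap between the lines, 7 of 40 members were higher in KYSE70 (24.1% of all genes) and 9 in KYSE450 (24.5%). Both counts of 9 include EPAS1, LOX and CA12, which passed the filter only through KYSE450, and the filter favours that direction. Among the glycolytic enzymes 4 were higher in KYSE70 (ENO2, HK1, PKM and PGAM1) and 5 lower (PFKL, ALDOA, LDHB, TPI1 and GAPDH).

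ENO2 averaged 124 ± 41.1 FPKM in KYSE70 and 12.9 ± 10.1 FPKM in KYSE450 (SD, n = 4 libraries each), a difference of 3.47 (SE 0.53, limma adjusted p = 0.000514). HK1 averaged 348 ± 71.0 FPKM against 94.5 ± 10.6 FPKM (1.85, SE 0.16, limma adjusted p = 1.23e-05). HK1 supplied 92.8% to 95.4% of the HK1 plus HK2 level in KYSE70 and 52.7% to 84.2% in KYSE450, so the ranges did not overlap. PFKL, the liver-type phosphofructokinase subunit, averaged 45.1 ± 6.53 FPKM in KYSE70 and 115 ± 1.34 FPKM in KYSE450 (-1.34, SE 0.12, limma adjusted p = 1.69e-05). LDHB, the heart-type lactate dehydrogenase subunit, averaged 1321 ± 122 and 2363 ± 177 FPKM (-0.84, SE 0.14, limma adjusted p = 0.00091), and LDHA supplied 49.4% to 54.5% of the LDHA plus LDHB level in KYSE70 but 27.4% to 42.4% in KYSE450. PKM (0.72, SE 0.15) and ALDOA (-0.87, SE 0.20) also passed, with limma adjusted p = 0.00371 and 0.00477. The small differences of GAPDH (-0.40, adjusted p = 0.0452) and PGAM1 (0.40, adjusted p = 0.028) did not pass after median-ratio scaling, and that of GAPDH was -0.07 after quantile normalization.

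**Figure D3:**
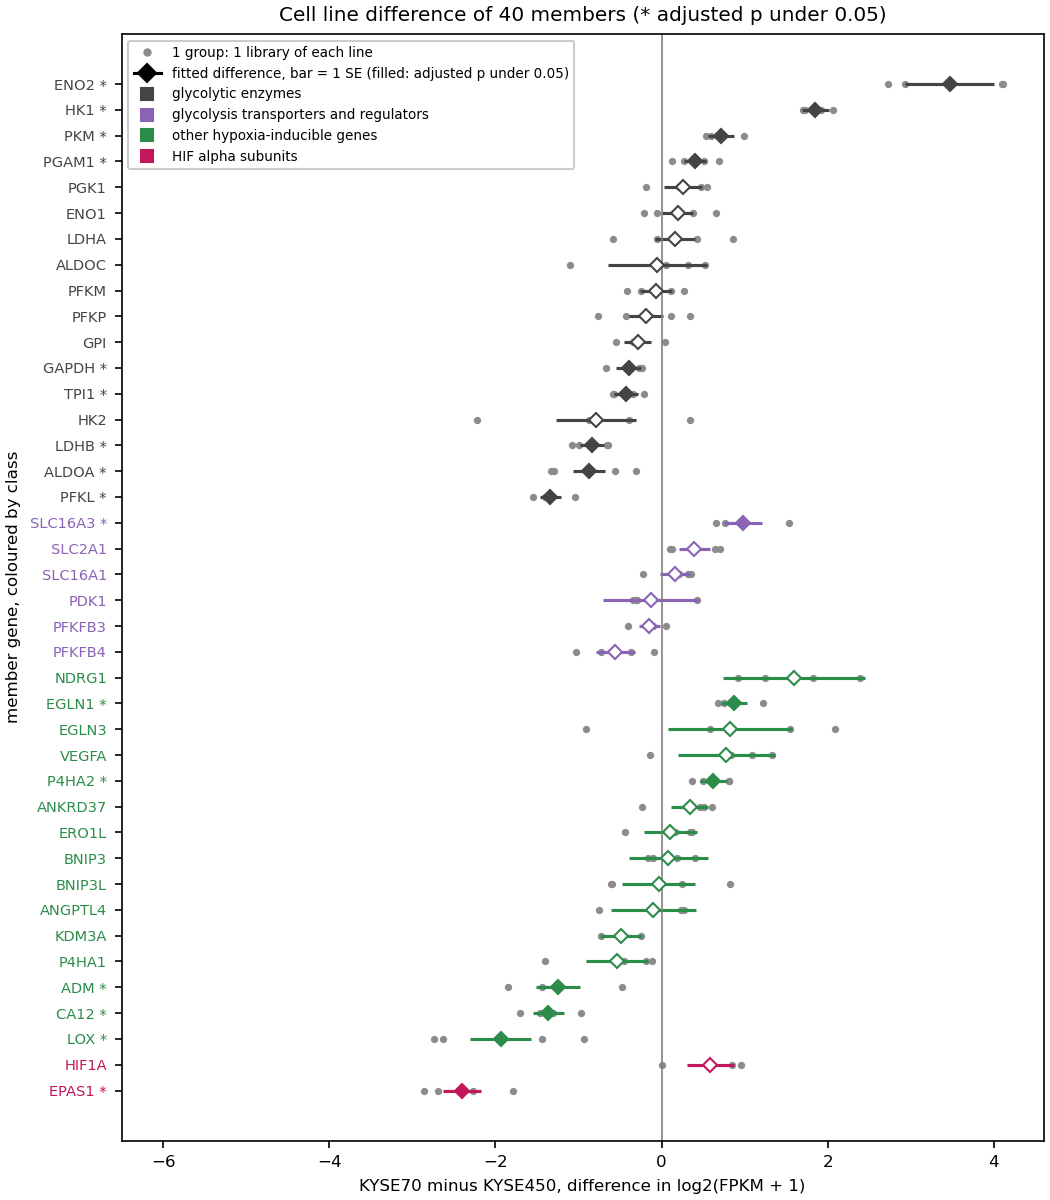
KYSE70 minus KYSE450 for the 40 members tested, as a difference in log2(FPKM + 1): grey points are the 4 groups (1 library of each line), diamonds the fit with a bar of 1 SE, filled with an asterisk at an adjusted p under 0.05. ENO2 at 3.47 and HK1 at 1.85 lie farthest to the right among the called members, and EPAS1 at -2.41 farthest to the left. EPAS1, LOX and CA12 passed the filter only through KYSE450.

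Of the other classes, SLC16A3, the lactate exporter MCT4, was higher in KYSE70 (0.98, SE 0.23, adjusted p = 0.00587), as were EGLN1 (0.87, SE 0.16, adjusted p = 0.00131) and P4HA2 (0.62, SE 0.17, adjusted p = 0.011). EPAS1 averaged 0.549 ± 0.491 FPKM in KYSE70 and 7.03 ± 1.33 FPKM in KYSE450 (SD, n = 4 libraries each; -2.41, SE 0.23, limma adjusted p = 1.93e-05), while HIF1A did not pass. In KYSE70 these EPAS1 levels rest on 8 to 47 reads per library. LOX (-1.94, SE 0.37, adjusted p = 0.0019), CA12, a carbonic anhydrase (-1.36, SE 0.18, adjusted p = 0.000217), and ADM, the vasodilator adrenomedullin (-1.25, SE 0.27, adjusted p = 0.00368), were lower in KYSE70. As EPAS1, LOX and CA12 entered the tests only through KYSE450, their calls are descriptions and lend no separate support. Of the further lists, 6 HIF targets were higher and 4 lower of 20 (10 called, against 50.3% of all genes), with PLOD2, a collagen lysyl hydroxylase, at -5.18 and SLC2A3, the glucose transporter GLUT3, higher (limma adjusted p = 4.24e-08). The lactate carrier SLC16A7 was at -3.38 (limma adjusted p = 1.35e-07).

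With overexpression of NMR no member passed the test. Limma called 0 of 40 members and 0.00% of all genes at an adjusted p under 0.05, voom on recovered reads also called 0, and 1 member and 148 genes (1.03%) had an unadjusted p under 0.05. That member was NDRG1, at 93.0 against 70.1 FPKM in KYSE70 and 25.6 against 12.6 FPKM in KYSE450 (difference 0.69, SE 0.18, unadjusted p = 0.00698 from limma, adjusted p = 1). With the plasmid arm fitted alone, which leaves 1 residual degree of freedom, NDRG1 was the 1 called member, among 12 genes in all (0.084%). Fits without any 1 lentiviral library draw their spread from the plasmid pairs only and so nearly repeat that fit. The glycolytic enzymes had a median of -0.08, with 15 of 17 below 0, and the other hypoxia-inducible genes 0.05. By line, the glycolytic median was -0.03 in KYSE70 and -0.16 in KYSE450. In KYSE70 8 of 17 glycolytic enzymes were above 0 (50.8% of all genes), and in KYSE450 2 of 17 were (44.2% of all genes). Only 7 of 17 were lower in both lines, so the count of 15 rests largely on KYSE450. The signs agreed in both lines for 10 of 40 members higher (23.0% of all genes) and 12 lower (27.6% of all genes). No member differed by 1 or more on the log2 scale in either line. Differences of that size were rare among all genes too (KYSE70 0.231%, KYSE450 0.370%), so their absence does not set the members apart.

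With knockdown of NMR no member passed either, and 22 of 40 members had opposite signs in the lines (46.4% of all genes). Limma again called 0 of 40 members and 0.00% of all genes, and voom called 0 of 40. An unadjusted p under 0.05 was found for 5 of 40 members and for 1794 genes (12.5% of all genes). The members' share was thus no higher than that of all genes, and the 5 are named below as a description. NDRG1 was at 462 against 196 FPKM in KYSE70 and 195 against 103 FPKM in KYSE450 (difference 1.07, SE 0.18, adjusted p = 0.239). ANGPTL4 was at 4.57 against 2.53 FPKM and 8.41 against 2.01 FPKM (1.15, SE 0.26, adjusted p = 0.279). Both were above their controls in both lines. ADM (0.67, adjusted p = 0.34) and EPAS1 (0.57, adjusted p = 0.357) were above 0 in both lines as well, and VEGFA was below 0 in both (-0.76, adjusted p = 0.372), at 136 against 150 FPKM in KYSE70 and 63.7 against 166 FPKM in KYSE450.

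In total, 8 of 40 members were higher with knockdown in both lines (27.1% of all genes), 10 were lower in both (25.9%), and 15 were higher in KYSE70 and lower in KYSE450 (22.1%). HK2 was at 31.3 against 20.1 FPKM in KYSE70 and at 58.2 against 97.7 FPKM in KYSE450. ALDOC was at 26.8 against 17.6 FPKM and at 25.7 against 39.0 FPKM, and EGLN3 at 48.1 against 24.3 FPKM and at 31.7 against 46.7 FPKM. Each of these 3 differed by more than 0.5 on the log2 scale in both lines, in opposite directions, with 1 library against 1 in each. They were picked by that rule, and the share of all genes meeting it was not counted. In KYSE70 alone, 10 of 40 members and 12.4% of all genes were at least 0.5 higher with knockdown. In KYSE450 alone, 4 of 40 members and 3.10% of all genes were at least 0.5 lower. The medians were -0.06 for the glycolytic enzymes and 0.20 for the other hypoxia-inducible genes (0.36 in KYSE70 and 0.10 in KYSE450). In KYSE70 the glycolytic median was -0.01. With the trend on GC content and length removed, the KYSE70 medians were 0.14 for the other hypoxia-inducible genes and 0.11 for the glycolytic enzymes, whose sign turned. The call depended on which pair was fitted: without either KYSE450 library of this arm 17 of 40 members and 33.8% of all genes passed, and without either KYSE70 library 4 members and 4.05% to 4.07% of all genes did, in fits that assume the remaining pair varies like the overexpression pairs. The overexpression and knockdown comparisons use different controls, and NDRG1 had the smallest p of the members in both.

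**Figure D4:**
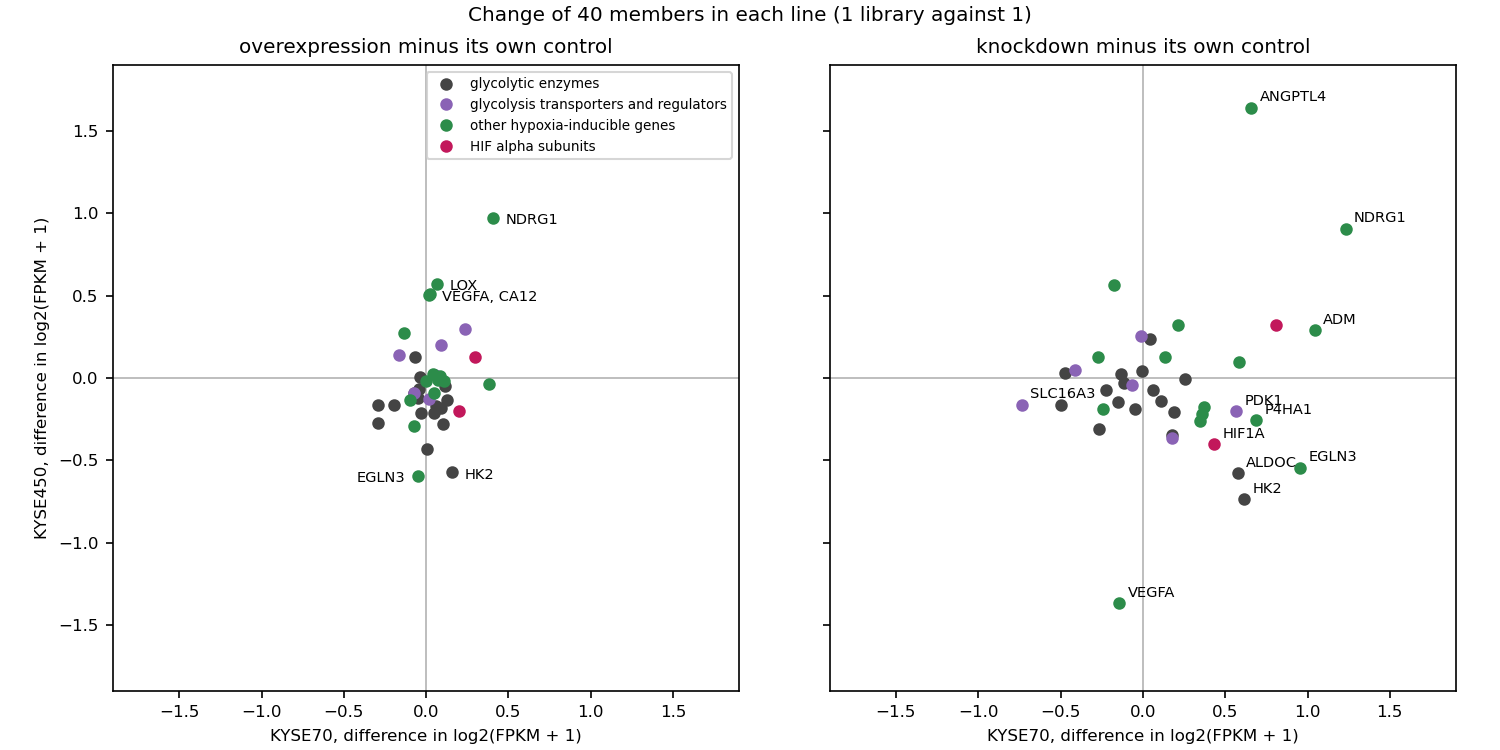
Each of the 40 members by its difference in log2(FPKM + 1) in KYSE70 (x axis) and in KYSE450 (y axis), overexpression minus plasmid control on the left and knockdown minus lentiviral control on the right, 1 library against 1 in each line. NDRG1 is in the upper right quadrant of both panels, and HK2, ALDOC and EGLN3 are at the lower right for knockdown.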

How the data were processed

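RNA from 4 groups in 2 cell lines (8 libraries) was sequenced. The deposited values carry no stated unit; they behave as FPKM, and the authors' tables give 1 FPKM value per gene and library. TopHat2 2.0.9, HTSeq 0.6.1 and the build hg19 are named, without roles, per the submitters' processing notes; no source names the annotation or the strand setting. All 30872 genes with a value above 0 in at least 2 libraries gave whole reads within 0.02, so depth and counting intervals come from recovered reads (26401805 to 37937856 per library).

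The members and lists were chosen with earlier results of these data known. A symbol listed more than once was taken at its row of highest mean. Genes averaging 1 FPKM or more were tested on log2(FPKM + 1) with limma 3.58.1 (trend) in R 4.3.3, adjusted by Benjamini and Hochberg over all 14311 genes, threshold 0.05, and checked on simulated data. The replicate number stands for the cell line, so the numbers pair libraries of 1 line, and line is the block in the arm, control and treatment fits; treatment fits held 1 term per pair of treated library and control, leaving 2 residual degrees of freedom. All members are described; of further lists, up to 3 called genes per comparison were named by smallest p, and those named beyond that, after their values were seen, are marked so in the text. Tried alternatives were another pseudocount, other filters, quantile and median-ratio scaling, a robust prior, voom on recovered reads, no block, each arm alone and leaving out each library. GC content came from GENCODE 29 and promoters from RefSeq on GRCh38.p14. Python 3.11.15, numpy 2.4.6 and pandas 2.3.3 were used.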

Additional observations from a re-analysis of the deposited data

Results flagged for a closer look

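Interaction of line and arm passed for 4 of 40 members, against 6.88% of all genes. As lentivirus minus plasmid in KYSE70 less the same in KYSE450, BNIP3L was at 1.14, EGLN3 at -1.98, ENO2 at -1.28 and LOX at -1.50. Their values in both lines are in the report. None of these calls was kept when any 1 plasmid library or KYSE450 lentiviral library was left out. LOX passed the filter only through KYSE450.

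With knockdown, 3 members differed by at least 0.5 on the log2(FPKM + 1) scale in opposite directions, each from 1 library against 1, and the difference between the lines was not tested. The share of all genes meeting this rule was not counted. HK2 differed by 0.61 in KYSE70 and -0.74 in KYSE450, ALDOC by 0.58 and -0.58, and EGLN3 by 0.96 and -0.54. The KYSE70 knockdown library was also the one with 8.63% mitochondrial FPKM, and its part in these differences was not tested.

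Of 79 groups of 4 libraries (a member within a line) checked for a library apart from the others, 1 was past Dixon's critical value for 4 values, which chance passes in about 1 in 20. It was PFKL in KYSE450, where the lentiviral control at 113 FPKM was lowest and its gap was 0.898 of the range; the other 3 were at 115 to 116 FPKM.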

How the results depend on the processing

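No call reversed under the alternatives run. Over 16 alternatives, the calls of the 15 members higher in the lentiviral arm were kept in 183 of 239 values, those of the 16 members called between lines in 226 of 252, and over 15 alternatives those of the 4 interaction members in 26 of 59. The arm count of 15 was 7 with no filter, 2 with no replicate block and 8 to 16 when 1 library was left out (8 without the KYSE450 plasmid control); it was 13 with median-ratio scaling. The interaction count of 4 was 0 with no filter, 2 with a mean of at least 5 FPKM, 2 with voom and 0 to 13 with 1 library left out. For the controls the count of 0 was 4 with those 4 libraries alone. The overexpression count of 0 was 1 in the plasmid arm alone with the replicate block and 0 to 1 with 1 library left out; the knockdown count of 0 ranged from 0 to 17. Causes of these changes were not tested. Fits with 1 library left out hold fewer libraries, and those with no filter hold more genes. The median of the other hypoxia-inducible genes between controls was 0.73, 0.92 with a pseudocount of 0.1, 1.12 with voom and 0.48 to 0.97 with 1 library left out; with overexpression it was 0.0468, and -0.0099 to 0.0468 with 1 library left out. Low levels limit CA9, CA12, LOX and EPAS1 in KYSE70.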
